A study of Mus musculus with 13 samples.

Results

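Peaks of the acetylated histone H3K27ac and of the co-repressors NCoR and SMRT were located at 8 genes of the mouse Hippo pathway. The genes were the co-activators Yap1 and Wwtr1, the transcription factors Tead1, Tead2, Tead3 and Tead4, and the pathway inhibitors Lats2 and Amotl2. They were taken from a list of names, drawn up with earlier results of these data known, and all 8 matched among 21887 protein-coding genes. Each locus was the annotated gene with 20 kb on each side, on build mm10, and a peak was counted where its centre lay in that window. Peaks in a window can belong to a neighbouring gene.

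The Hippo pathway is a kinase cascade that holds back cell growth. The kinases LATS1 and LATS2 phosphorylate YAP (from Yap1) and TAZ (from Wwtr1), which are then kept out of the nucleus or degraded. In the nucleus YAP and TAZ bind no DNA themselves and act through TEAD proteins, which recognise the sequence GGAATG. Angiomotin proteins, of which AMOTL2 is a member, hold YAP in the cytoplasm, and both Lats2 and Amotl2 are known YAP targets that feed back on the pathway. In fibroblasts on stiff culture plastic YAP and TAZ are typically nuclear, and TEAD4 is known for its role in the trophectoderm of the early embryo. NCoR and SMRT are scaffolds that recruit the histone deacetylase HDAC3, which removes marks such as H3K27ac.

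There were 13 libraries in all, 1 per group, and the peak lists of 12 of them were used. The embryonic stem cells (ESCs) were of strain C57BL/6J and were kept in a serum-free medium with LIF and the inhibitors CHIR99021 and PD0325901. The mouse embryonic fibroblasts (MEFs) and all reprogramming cultures were of strain C57BL/6J-OG2. Reprogramming cultures carried OCT4, SOX2, KLF4 and c-MYC (OSKM). H3K27ac was profiled in untreated ESCs, in untreated MEFs and at days 5, 9 and 13 of OSKM reprogramming with either a FLAG control plasmid or the HDAC3-YF plasmid, which encodes a deacetylase-null HDAC3. The co-repressors were profiled in ESCs and at day 9 of reprogramming, where no FLAG or HDAC3 plasmid is named. The labels call the cultures transfected, while the treatment protocol describes viral supernatants, and the OSKM cells are labelled only as presumed intermediates. Medium, strain and cell type cannot be told apart between ESCs and the other cells.

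With 1 library per group there was no spread between replicates of a condition. HDAC3-YF and FLAG could be compared only over the 3 days, as matched pairs. Every interval was exactly 200 bp wide, and read depth is unknown. The H3K27ac lists of ESCs and MEFs held 25499 and 26591 peaks, and the 6 OSKM lists held 14251 to 16944. A count at a locus therefore has to be read against the length of its list. Of 8 ESC marker genes all 8 had H3K27ac peaks in ESCs, 58 in sum, against 4 in MEFs and 4 to 7 in the OSKM lists. Of 8 fibroblast marker genes all 8 had peaks in MEFs, 37 in sum, against 4 in ESCs and 5 to 17 in the OSKM lists. Markers of each cell type were thus acetylated in the cells that carry its label. Summed peaks at 4 haematopoietic marker genes were 12 in MEFs, 11 in ESCs and 5 to 8 in the OSKM lists, at 4 endothelial genes 10, 6 and 2 to 8, and at 4 epidermal genes 3, 1 and 0 to 2.

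**Figure D1:**
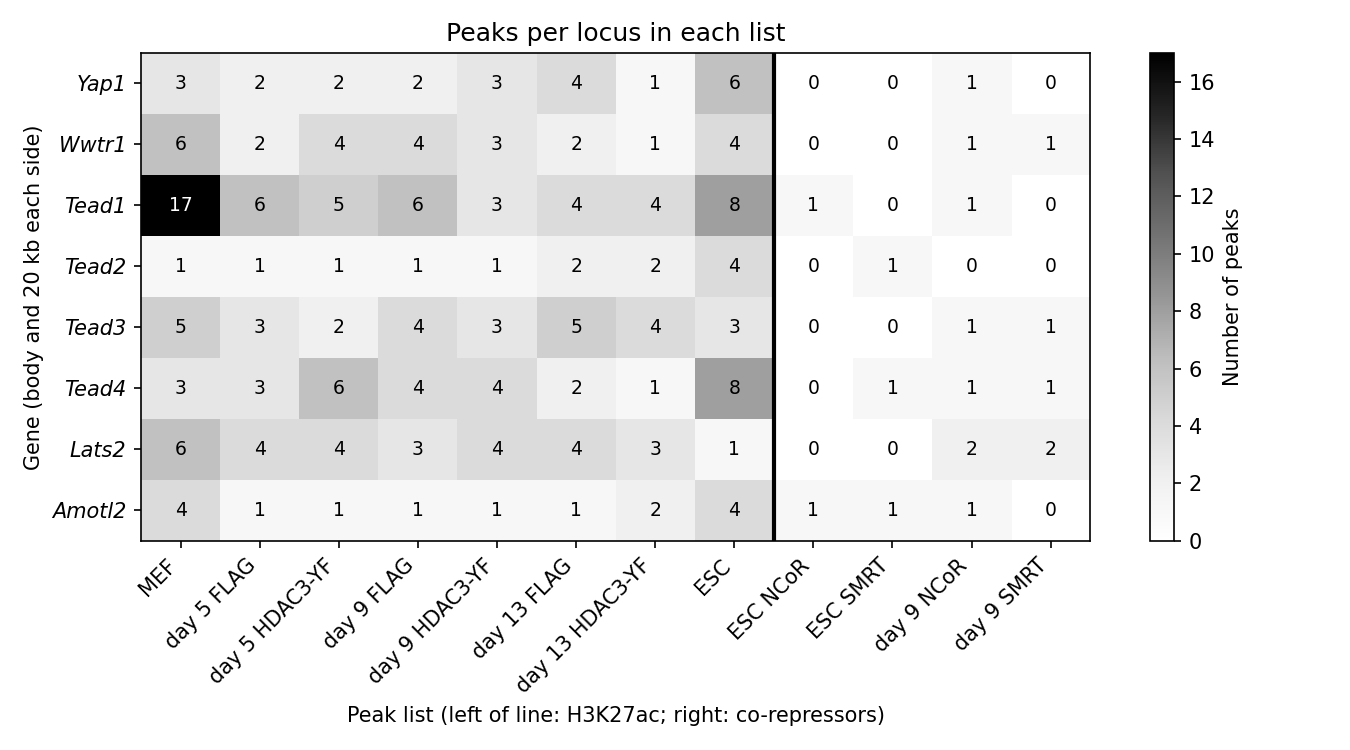
Number of peaks at each of the 8 loci (rows) in each of the 12 peak lists (columns), 1 library per list, with darker cells for more peaks. Tead1 holds 17 peaks in MEFs and 8 in ESCs, while Lats2 holds 6 and 1 and Tead4 holds 3 and 8.

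A peak near a gene end or start was present in nearly all libraries, and the number of other peaks varied more. Its place in the score order of a list differed between libraries. Strands of Tead1 and Tead4 were not used, so their end peaks were not assigned to a promoter. A peak within 1 kb of an annotated gene end or RefSeq start was present in all 8 H3K27ac lists at 7 of the 8 genes. Among all protein-coding genes the share was 36.3%. The exception was Tead3, which had such a peak in 7 lists and lacked it in the day 5 HDAC3-YF list. In each list 7 to 9 of the peaks at the loci lay within this distance. The remaining peaks numbered 37 in MEFs and 30 in ESCs. FLAG cultures had 14 at day 5, 17 at day 9 and 15 at day 13, and HDAC3-YF cultures had 18, 14 and 10.

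**Figure D2:**
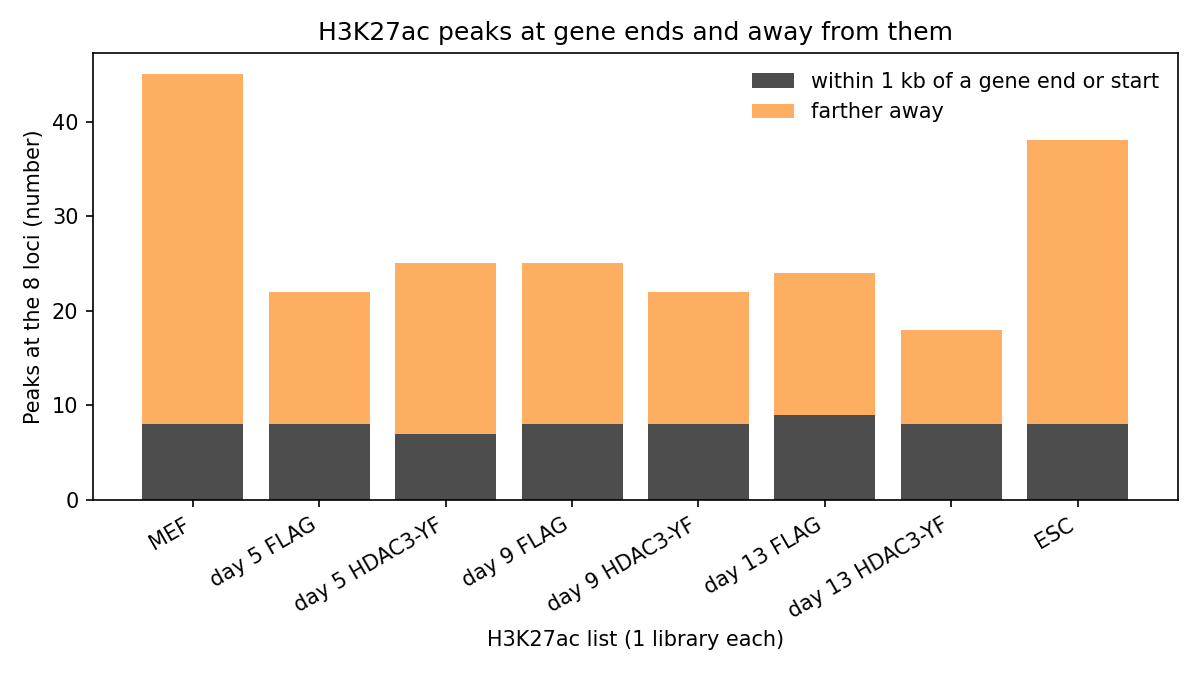
H3K27ac peaks at the 8 loci in each of the 8 H3K27ac lists, split into peaks within 1 kb of a gene end or RefSeq start (dark) and peaks farther away (light). The dark part stays between 7 and 9 peaks, and the light part runs from 10 in the day 13 HDAC3-YF list to 37 in MEFs.

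The end peaks were not of equal strength within a list. The deposited score, whose scale is not stated, has a ceiling of 200 and is used here only to order peaks within a list. The highest-scoring end peak of each gene was taken. At the ceiling in all 8 lists was the Lats2 end peak. In the 6 OSKM lists Tead1 scored 137.28 to 200 and Amotl2 159.77 to 200. Yap1 scored 53.17 to 200 and Wwtr1 54.64 to 200. Much lower in the same lists were Tead2 at 8.27 to 54.83, Tead4 at 20.57 to 33.11 and Tead3 at 8.44 to 28.25 where it had one. In the FLAG list of day 13 Tead3 had another end peak, of score 6.84, at the position shared with the other lists. In MEFs all of these end peaks were at the ceiling except Tead2 at 162.18, and in ESCs all except Tead3 at 53.98. The score at the Tead4 end was thus at the ceiling in MEFs and ESCs, which 25.9% and 24.4% of those lists reached. In the OSKM lists 1.67% to 11.9% of peaks reached the ceiling. Between 33.9% and 52.3% of each OSKM list scored as high as the Tead4 end peak or higher.

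Promoter sequences from RefSeq (GRCm38.p6, the same coordinates as mm10) were matched for 6 of the 8 genes, with 10 windows of 300 bases. Each window runs from 250 bases before a start to 50 bases at and after it. The TEAD sequence GGAATG, searched on both strands, occurred in a window of 5 of the 6 genes, namely Yap1, Wwtr1, Tead3, Lats2 and Amotl2. It occurred in 16.6% of all 27025 genes with a RefSeq window and in 14.7% of all 32851 windows. CACGTG, the E-box bound by MYC among other factors and identical on both strands, occurred at 2 of the 6 genes, Yap1 and Lats2, where 8.09% of all genes and 7.15% of all windows had it. No matches at these genes overlapped. No Tead2 window held either motif. The windows are shown for the 2 genes with both motifs, for Wwtr1, and for the Tead3 window with 3 TEAD motifs. Lower case letters run 5′ to 3′ along the gene, and capitals mark the TEAD motif on either strand and the E-box.
Yap1 (chr9:8004547-8004846, minus strand): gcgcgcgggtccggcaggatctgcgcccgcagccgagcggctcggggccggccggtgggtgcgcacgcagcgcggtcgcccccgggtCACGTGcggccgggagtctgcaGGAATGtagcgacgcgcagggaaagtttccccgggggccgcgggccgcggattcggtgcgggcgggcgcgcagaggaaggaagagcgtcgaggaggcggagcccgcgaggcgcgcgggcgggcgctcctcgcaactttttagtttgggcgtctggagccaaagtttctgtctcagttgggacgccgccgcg
Wwtr1 (chr3:57575861-57576160, minus strand): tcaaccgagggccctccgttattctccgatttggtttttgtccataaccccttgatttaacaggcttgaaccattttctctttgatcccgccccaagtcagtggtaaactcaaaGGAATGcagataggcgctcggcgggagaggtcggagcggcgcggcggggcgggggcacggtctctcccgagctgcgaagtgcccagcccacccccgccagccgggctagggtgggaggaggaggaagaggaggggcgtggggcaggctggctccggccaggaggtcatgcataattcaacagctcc
Tead3 (chr17:28350551-28350850, minus strand): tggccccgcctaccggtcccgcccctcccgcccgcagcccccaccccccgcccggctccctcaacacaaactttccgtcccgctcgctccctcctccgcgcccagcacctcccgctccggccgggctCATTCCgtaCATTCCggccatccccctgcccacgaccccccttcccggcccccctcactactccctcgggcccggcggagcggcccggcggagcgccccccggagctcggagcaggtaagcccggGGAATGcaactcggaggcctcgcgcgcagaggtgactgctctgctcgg
Lats2 (chr14:57746074-57746373, minus strand): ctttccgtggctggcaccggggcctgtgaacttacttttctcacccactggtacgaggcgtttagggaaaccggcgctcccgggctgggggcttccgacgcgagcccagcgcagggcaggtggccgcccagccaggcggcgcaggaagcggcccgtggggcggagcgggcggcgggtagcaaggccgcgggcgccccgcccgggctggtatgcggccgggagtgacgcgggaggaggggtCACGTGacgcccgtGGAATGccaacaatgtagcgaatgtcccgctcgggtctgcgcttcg
The Lats2 motifs begin 10 bases before the start (CACGTG) and 4 bases after it (GGAATG). Both lay inside a day 9 interval shared by NCoR and SMRT, chr14:57746041-57746240. In none of the 8 H3K27ac lists did an interval cover them. The GGAATG of Wwtr1 was covered by intervals of 3 H3K27ac lists, and the third Tead3 motif, 2 bases after that start, by intervals of 5. The Yap1 and Amotl2 motifs were covered by no interval of any list. A match describes these letters only and is not evidence of binding.

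Between MEFs and ESCs the loci went in both directions. Summed over the 8 loci MEFs had 45 peaks and ESCs 38, so 45.8% of both lie in the ESC list (95% Wilson interval 35.5 to 56.5%, for counting error only). The same share was 49.0% over the complete lists and 50.9% over all gene windows. A locus was called different where its counts differed by 2 or more. ESCs had more peaks at 3 members by this rule (12.7% of all genes) and fewer at 4 members (10.2% of all genes). The median difference was -1 peak for the members and 0 for all genes. The windows of the members run from 56328 to 267429 bp, and longer windows can hold more peaks.

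The co-activators differed in direction. Yap1 (chromosome 9, 7931999 to 8004638) had 3 peaks in MEFs and 6 in ESCs. The FLAG lists had 2, 2 and 4 peaks at days 5, 9 and 13, and the HDAC3-YF lists 2, 3 and 1. Apart from the end peak no Yap1 position was shared between MEFs and ESCs by overlap. The MEF and ESC end peaks were joined through other lists and did not overlap each other directly. A MEF peak 43.07 kb and an ESC peak 42.72 kb from the start had centres within 1 kb of each other. ESC peaks lay 9.12, 26.8 and 42.7 kb into the gene from the start, upstream of it and beyond the 3′ end, and scored 6.83 to 36.59. The Yap1 excess in ESCs was 1 peak with flanks of 5 kb, and also when the highest-scoring 14251 peaks of each list were used.

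Wwtr1 (chromosome 3, 57455644 to 57575910) had 6 peaks in MEFs and 4 in ESCs. OSKM lists held 2, 4 and 2 peaks with FLAG and 4, 3 and 1 with HDAC3-YF. Of its 10 positions away from the ends 1 was shared by MEFs and ESCs, 104.9 kb from the start, and it was also present in 3 OSKM lists. Another, 24.8 kb from the start (chromosome 3, 57550956 to 57551310), was found in 4 OSKM lists and in neither MEFs nor ESCs. Its libraries were both arms of day 9, HDAC3-YF of day 5 and FLAG of day 13.

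Tead1, the longest member, had the most peaks. This gene (chromosome 7, 112679356 to 112906784) had 17 peaks in MEFs and 8 in ESCs, with 6, 6 and 4 in the FLAG lists and 5, 3 and 4 in the HDAC3-YF lists. Of its 30 positions away from the ends 15 were in MEFs and not ESCs, 6 in ESCs and not MEFs, 1 in both and 8 in OSKM lists alone. Of the 15 MEF positions 3 were kept in an OSKM list, and none of the 6 ESC positions was, by an overlap of at least 1 bp. With centres within 1 kb 2 of 5 ESC peaks without a MEF counterpart met an OSKM peak. The strongest ESC peak inside the gene, at the ceiling score of 200, lay 12.2 kb from the lower-coordinate end. It overlapped no peak of another list, and a position held by HDAC3-YF lists lay 502 bp from it. Many MEF peaks at Tead1 were weak. With the 14251 highest-scoring peaks of each list Tead1 had 4 peaks in both cell types, and with the top 50% of each list 3 in MEFs and 4 in ESCs, so the direction rests on low-scoring peaks.

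The other TEAD genes held fewer peaks than Tead1 in MEFs. Tead4 (chromosome 6, 128227143 to 128300813) had 3 peaks in MEFs and 8 in ESCs, with 3, 4 and 2 in FLAG lists and 6, 4 and 1 in HDAC3-YF lists. Its strongest ESC peak away from the ends, at the ceiling of 200, lay 4.57 kb inside the higher-coordinate end. Right beside it, 4.04 kb from that end, was a separate position shared by MEFs and 4 OSKM lists (chromosome 6, 128296545 to 128296993). The ESC excess at Tead4 fell to 1 peak with lists of equal length and to 0 with the top 50% of each list.

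Tead2 (chromosome 7, 45215792 to 45233468) had 1 peak in MEFs and 4 in ESCs. In the OSKM lists it had 1 peak at days 5 and 9 and 2 at day 13, the same with FLAG and HDAC3-YF. The second day 13 peak overlapped an ESC peak (chromosome 7, 45240895 to 45241141) that lies in the neighbouring gene Slc6a16. With overlapping intervals joined, 25 positions away from the ends were in ESCs and not MEFs, and only this was in an OSKM list. By direct overlap 3 of 27 ESC peaks without a MEF counterpart met an OSKM peak, 1 each at Tead2, Tead3 and Tead4. Counting only peaks whose nearest gene was Tead2 left 2 in ESCs and 1 in MEFs.

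Tead3 (chromosome 17, 28331671 to 28350805) had 5 peaks in MEFs and 3 in ESCs. It had 3, 4 and 5 peaks with FLAG and 2, 3 and 4 with HDAC3-YF. Positions present in all 8 lists lay at its neighbours Fance and Rpl10a, the latter a ribosomal protein gene 638 bp away. Within Tead3 a MEF peak of score 191.59 lay at a position 9.72 kb from the outermost start. Among the OSKM lists only FLAG at days 9 and 13 had a peak there, with scores of 8.13 and 7.71. Those scores lie near the low end of their lists, and the day 13 peak did not overlap the MEF peak directly.

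Of the inhibitors, Lats2 showed the clearest fibroblast pattern. Lats2 (chromosome 14, 57689662 to 57746212) had 6 peaks in MEFs and 1 in ESCs, the end peak. FLAG lists had 4, 3 and 4 peaks and HDAC3-YF lists 4, 4 and 3. A position 15.5 kb from the outermost start (chromosome 14, 57730208 to 57731008) was present in MEFs and all 6 OSKM lists by joined overlap. It lay 3810 bp from a further RefSeq start. Another position, 38.6 kb from the outermost start, was present in MEFs and 5 OSKM lists, the exception being HDAC3-YF at day 5. By direct overlap the MEF peak at the first position missed the FLAG peaks of days 9 and 13. At the other position it missed the HDAC3-YF peak of day 13. No ESC peak overlapped either position. Lats2 kept fewer peaks in ESCs under every setting tried, by 3 to 5 peaks. The annotated gene Gm52140 overlaps its start, and the MEF peaks upstream of Lats2 lie nearer to that gene.

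Amotl2 (chromosome 9, 102717091 to 102733418) had 4 peaks in MEFs and 4 in ESCs, but only the end peak was at the same position by overlap. A MEF peak 9.17 kb and an ESC peak 8.77 kb from the start had centres within 1 kb of each other. In the OSKM lists it had the end peak alone, apart from a second peak with HDAC3-YF at day 13, score 7.24, about 7.93 kb upstream of the RefSeq start.

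**Figure D3:**
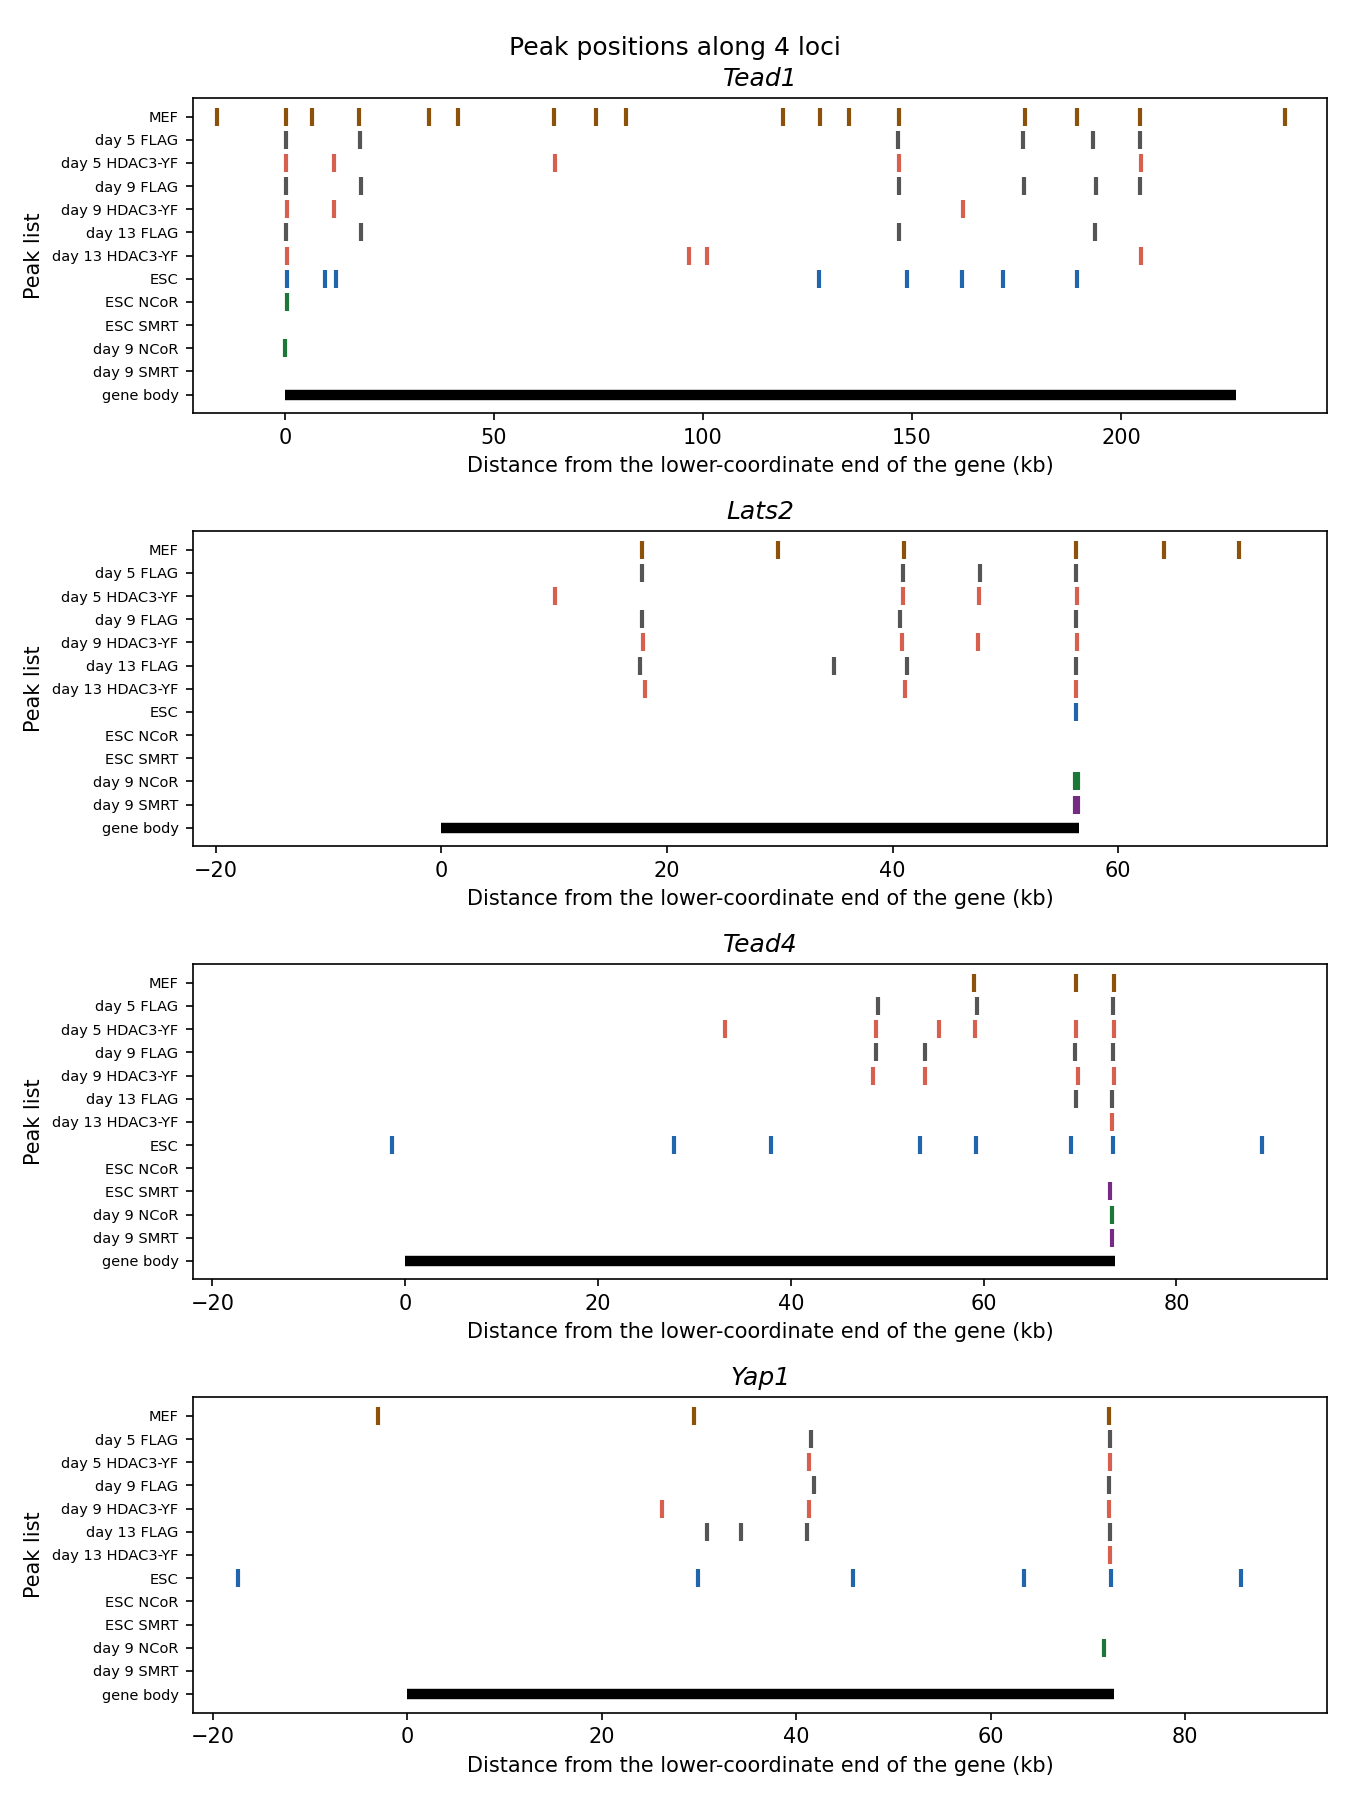
Peak centres (ticks) along Tead1, Lats2, Tead4 and Yap1 in each of the 12 lists, with distance in kb from the lower-coordinate end of the gene and the gene body as a black bar. Ticks line up across all H3K27ac lists at 1 end of each gene, Lats2 has 2 further columns shared by MEFs and OSKM lists and absent in ESCs, and most other ticks stand alone.

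Taken over the 8 loci there were 99 distinct H3K27ac positions, joining overlapping intervals, of which 9 were in all 8 lists and 68 in a single list. Intervals were joined in chains, so lists that share a position need not overlap each other directly. Away from the ends, 5 of 90 positions were shared by MEFs and ESCs, 32 were in MEFs and not ESCs, 25 in ESCs and not MEFs, and 28 in OSKM lists alone. By direct overlap 3 of the 37 MEF peaks away from the ends met an ESC peak. OSKM lists held 4 of the 5 shared positions, 8 of the 32 MEF positions and 1 of the 25 ESC positions, by joined overlap. Matched singly by direct overlap, OSKM peaks met 10 of 34 MEF peaks without an ESC counterpart. For ESC peaks without a MEF counterpart it was 3 of 27. With centres within 1 kb, OSKM lists met 10 of 28 MEF peaks without an ESC counterpart and 5 of 21 ESC peaks without a MEF counterpart. Of the 28 positions in OSKM lists alone 9 were in at least 2 of them. A Yap1 position 31.2 kb from the start (chromosome 9, 7973223 to 7973621) was such a case, with both libraries of day 5 and HDAC3-YF at day 9, and the FLAG lists of days 9 and 13 had peaks just beside it. Because intervals are only 200 bp wide, neighbouring intervals can miss each other. Sharing between lists was not counted over all genes, so none of these numbers is read as a trait of these loci. Allowing centres within 1 kb, 17 of the 45 MEF peaks at the loci had an ESC counterpart, and 9 of 45 had one by an overlap of at least 1 bp.

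HDAC3-YF and FLAG cultures were compared next at each day, to ask how a deacetylase-null HDAC3 relates to acetylation at these genes. The summed counts differed little and not in the same direction. Day 5 gave 22 peaks in the FLAG list and 25 in the HDAC3-YF list over the 8 loci, so 53.2% were in the HDAC3-YF list (95% Wilson interval 39.2 to 66.7%), against 52.0% over the complete lists. Day 9 gave 25 and 22, or 46.8% (33.3 to 60.8%) against 48.1%. Day 13 gave 24 and 18, or 42.9% (29.1 to 57.8%) against 48.1%. Each interval includes the share over the complete lists. With lists of equal length the day 5 counts were 21 with FLAG and 18 with HDAC3-YF, and with the top 50% of each list the day 13 counts were 8 and 10, so the sign turned in both cases.

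At single loci the differences were small. By the rule of 2 or more peaks HDAC3-YF was higher at 2 members at day 5, Wwtr1 (2 and 4 peaks) and Tead4 (3 and 6), where 2.62% of all genes were, and lower at none (1.41% of all genes). At day 9 it was lower at Tead1 (6 and 3 peaks; 2.77% of all genes) and higher at none (1.57%). At day 13 it was lower at Yap1 (4 and 1; 3.54% of all genes) and higher at none (2.66%). Lists of equal length left Wwtr1 at 2 and 2 and Tead4 at 3 and 4 peaks at day 5, so both calls ended, while Tead1 at day 9 (5 and 3) and Yap1 at day 13 (3 and 1) still met the rule, and Tead1 at day 5 (6 and 3) then met it too. With the top 50% of each list all 4 calls ended.

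Tead3 had 1 peak fewer with HDAC3-YF at each of the 3 days, which 1.44% of all genes showed at any size. At day 5 the missing peak was the one at its start. With lists of equal length its difference was 0 at days 9 and 13, and with the top 50% of each list day 13 gave 1 peak in the FLAG list and 3 in the HDAC3-YF list. Tead2 had equal counts at all days. Over the 3 days as matched pairs the mean difference of the summed counts was -2 ± 4.58 peaks (SD, n = 3 days). For Tead3 it was -1 with an SD of 0, and for Tead1 -1.33 ± 1.53. An exact two-sided sign-flip test over 3 pairs cannot give a p below 0.25, so it cannot reach significance. Tead3 had that smallest p of 0.25 by the exact test, as did 2.08% of all genes (Benjamini-Hochberg adjusted p = 1), and the other 7 members had p of 0.5 to 1 by the same exact test.

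Some positions were called in 1 arm alone. Of 41 positions away from the ends in OSKM lists 12 were found with FLAG alone, 14 with HDAC3-YF alone and 15 with both, by overlap. Counted as peaks, 27 of the 46 FLAG peaks away from the ends overlapped an HDAC3-YF peak of any day, and 33 had one with its centre within 1 kb. Of the 42 HDAC3-YF peaks 26 overlapped a FLAG peak and 29 had one within 1 kb. These counts were not made over all genes, so they are not read as particular to these loci. In Tead1 a position 18.1 kb from the lower-coordinate end (chromosome 7, 112697268 to 112697654) was present in the FLAG lists of all 3 days, with scores of 13.01, 9.7 and 8.31. No other list overlapped it, and a MEF peak of score 65.91 lay 470.5 bp away. Another Tead1 position, at 11.67 kb, was overlapped by the HDAC3-YF lists of days 5 and 9 alone, and the ESC peak at the ceiling score lay 502 bp away. The scores of the FLAG position lie near the low end of their lists, which start at 6.68 to 6.71. In the same libraries the 8 fibroblast markers summed to 10 (FLAG) and 17 (HDAC3-YF) peaks for day 5, 14 and 6 for day 9, and 8 and 5 for day 13, so they moved in the same directions as the sum over the loci. With peaks were 6 of these 8 genes in every FLAG list and 5 in every HDAC3-YF list, and Pdgfrb and Postn were at 0 in all 6. Their part in the result was not tested. A lower count in a mixed culture can come from fewer cells with the mark or less mark per cell, which cannot be told apart here.

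**Figure D4:**
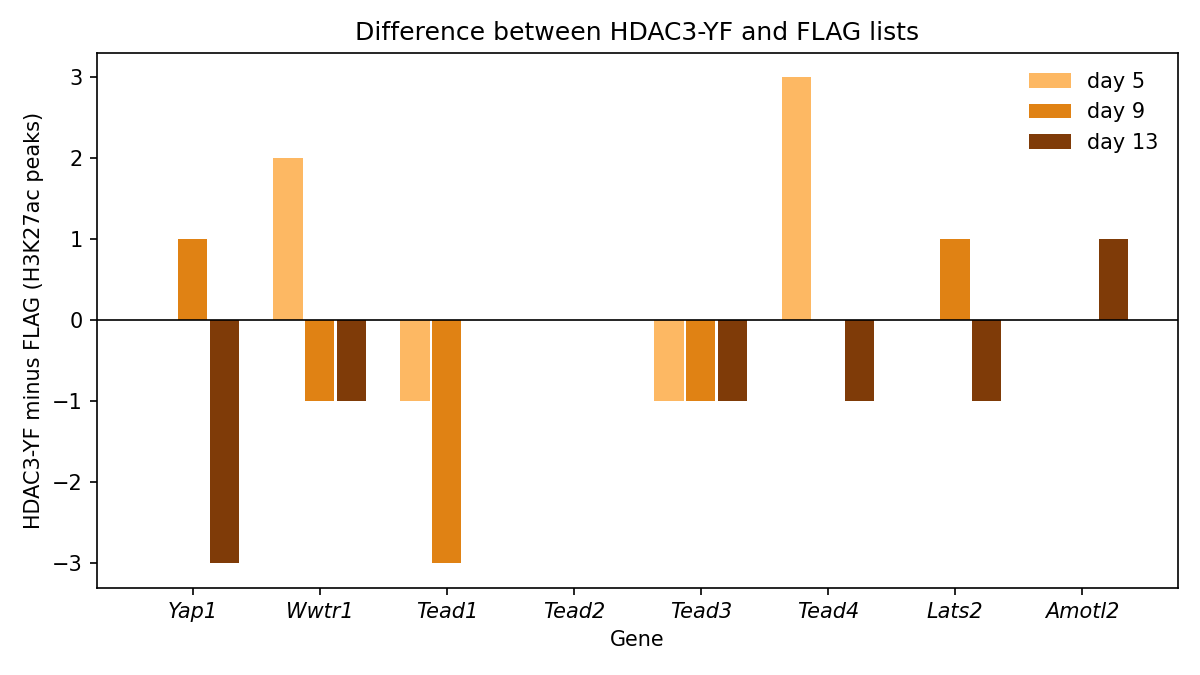
Difference in the number of H3K27ac peaks between the HDAC3-YF and FLAG lists at each of the 8 loci, with 1 bar per day and 1 library per list. Tead4 at day 5 is 3 above FLAG, Tead1 at day 9 and Yap1 at day 13 are 3 below it, and Tead3 is 1 below at all 3 days.

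NCoR was found at more of these genes in day 9 cultures than in ESCs, while SMRT was at about as many. NCoR peaks at day 9 lay in the windows of 7 of the 8 genes (34.3% of all genes), all except Tead2, and SMRT peaks in those of 4 (31.9%), namely Wwtr1, Tead3, Tead4 and Lats2. In ESCs NCoR lay at 2 genes (23.1% of all genes), Tead1 and Amotl2, and SMRT at 3 (26.1%), Tead2, Tead4 and Amotl2. The lists held 5179 NCoR and 4860 SMRT peaks at day 9 and 3687 and 4324 in ESCs, so the day 9 lists were longer. Total peaks at the 8 loci were 8 for NCoR and 5 for SMRT at day 9, and 2 and 3 in ESCs. Within 1 kb of a gene end or start the numbers were 5 genes for NCoR (21.9% of all genes) and 3 for SMRT (19.9%) at day 9, and 2 (12.5%) and 3 (13.9%) in ESCs. Where NCoR and SMRT share an interval they also share its score, so these are not independent calls.

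All ESC sites were at gene ends. The Amotl2 site, called for both co-repressors, lay 182.5 bp after the start and overlapped the ESC H3K27ac peak. The Tead1 NCoR site (chromosome 7, 112679616 to 112679815) also overlapped ESC acetylation. The SMRT sites of Tead2 and Tead4 overlapped no ESC H3K27ac peak, with 348 bp and 300 bp between centres. At day 9 the Tead1 NCoR site was 451 bp from the ESC site, and the Tead4 site, now called for both co-repressors, was 193 bp from it. These were the closest pairs between the cell populations at the 8 loci.

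At day 9 Lats2 had 2 sites, each called for both NCoR and SMRT, chr14:57745717-57745916 and chr14:57746041-57746240. Their centres lay 306.5 bp after and 17.5 bp before the start, and both overlapped the H3K27ac peak of the day 9 FLAG and HDAC3-YF lists. Yap1 had an NCoR site 909.5 bp after its start and Wwtr1 a joint site 646.5 bp before its start. Neither overlapped a day 9 H3K27ac interval, and the nearest day 9 FLAG peak centres were 488 bp and 717 bp away. The Amotl2 NCoR site at day 9 was inside the gene, 8727.5 bp from its start, at an ESC H3K27ac position that no OSKM list held. It lay 440 bp from the centre of a MEF peak, without overlap, and 8307 bp from the nearest day 9 FLAG peak. The Tead3 site lay in Rpl10a, so it is nearer to another gene. It overlapped MEF acetylation and not that of day 9. Leaving it out gives 7 NCoR and 4 SMRT peaks at day 9, at 6 and 3 genes, so that SMRT was then at 3 genes in both.

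The rest of the pathway was described by 3 lists of genes, 45 in all, under the same rule of 2 peaks. Of 22 core and upstream Hippo genes ESCs had more H3K27ac peaks than MEFs at 3 and fewer at 8, with a median of -1, where 12.7% of all genes had more and 10.2% fewer. Named by the size of the difference were Ptpn14, a phosphatase that binds YAP, with 9 peaks in MEFs and 1 in ESCs, the kinase gene Taok3 with 9 and 4, the FERM protein gene Frmd6 with 8 and 3, and Nf2, which encodes the upstream activator merlin, with 2 and 6. Of the 19 YAP and TEAD targets ESCs had more peaks at 1 and fewer at 8, with a median of -1 and with 47 peaks against 93 in sum. Rbms3 had 16 peaks in MEFs and 0 in ESCs, Crim1 9 and 1, Asap1 10 and 2, and Ankrd1, a widely used YAP reporter gene, 3 and 0. Among the 4 genes of VGLL proteins, which bind TEAD, ESCs had fewer peaks at 2, with Vgll4 at 11 and 3 peaks, Vgll3 at 5 and 1, Vgll2 at 0 and 1, and Vgll1 at 0 in both.

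With HDAC3-YF the targets had fewer peaks than with FLAG at 5 of 19 genes at day 9 and more at 0, against 2.77% and 1.57% of all genes. On day 5 HDAC3-YF was lower at 2 targets and higher at 1, and on day 13 lower at 1 and higher at 1. Among all genes 1.41% were lower and 2.62% higher on day 5, and 3.54% and 2.66% on day 13. Their sums in FLAG and HDAC3-YF lists were 44 and 40 on day 5, 52 and 34 on day 9, and 39 and 29 on day 13. Myof, a membrane repair gene, had 6 and 8 peaks on day 5, 10 and 7 on day 9, and 8 and 1 on day 13, and Asap1 had 9 and 3 at day 9. The kinase gene Nuak2 had 5 and 3 at day 9, and Arhgef17 had 5 and 3. Of the core and upstream genes 3 were higher and 3 lower at day 5, 2 were higher and 1 lower at day 9, and 1 was higher and 5 lower at day 13. Ptpn14 had 4 (FLAG) and 11 (HDAC3-YF) peaks on day 5, 4 and 7 on day 9, and 5 and 3 on day 13. Map4k4, a kinase acting on LATS, had 2 and 4, 2 and 4, and 2 and 3, while the scaffold gene Wwc1 had 4 and 2, 5 and 3, and 4 and 2. Frmd6 had 2 and 2, 3 and 2, and 3 and 1, and no VGLL gene differed by 2 or more at any day. The fibroblast marker sums above belong to the same libraries, and their part in these counts was not tested. Day 9 NCoR lay in the window of 15 of the 22 core and upstream genes, 6 of the 19 targets and 0 of the 4 co-factors, where 34.3% of all genes had it. In the same order day 9 SMRT lay at 16, 5 and 1 (31.9% of all genes). ESC NCoR lay at 11, 3 and 2 (23.1%), and ESC SMRT at 10, 2 and 2 (26.1%).

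**Figure D5:**
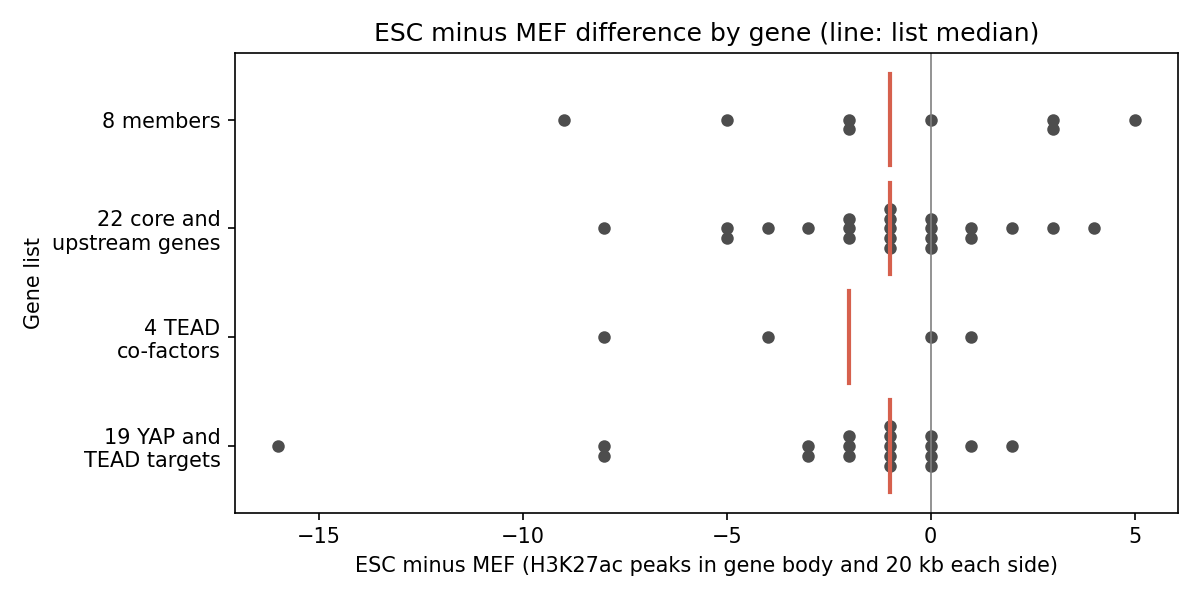
ESC minus MEF difference in H3K27ac peaks for each gene (points) in the 8 members and in 3 lists of related genes, with the list median as a vertical line. Members run from -9 (Tead1) to 5 (Tead4), and the target gene Rbms3 is at -16.

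The members did not share a pattern across the 8 H3K27ac lists. The Pearson correlation of a gene's counts with the sum of the other 7 members was 0.82 for Amotl2, 0.79 for Wwtr1, 0.69 for Tead1 and 0.44 for Yap1. For Tead4 it was 0.19, for Tead2 and Tead3 0.17, and for Lats2 0.01. These values describe 8 lists of different length and carry no test. The summed count of the members was most like those of Lpar1 (r = 0.99), Tanc1 (0.99), Gse1 (0.98), Vps53 (0.98) and Myl4 (0.97) among 6183 genes with 16 or more peaks. All share the longer ESC and MEF lists.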

How the data were processed

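Libraries were chromatin immunoprecipitations of H3K27ac, NCoR and SMRT, grouped by their titles, 1 per group. Per the submitters' processing notes the authors used Bowtie2 2.2.0, MACS 1.4 and build mm10. The deposited files list 200 bp intervals with a score each, of unstated scale. Settings, read depth and how intervals got this width are not given in the sources used here. ESC input was not analysed here.

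Gene positions came from a RefSeq table of GRCm38.p6. Peaks were counted by centre in the gene with 20 kb on each side (Python 3.11.15, NumPy 2.4.6, SciPy 1.17.1). Window counting was tested on simulated data and returned the planted count in 200 of 200 windows. H3K27ac intervals that overlapped by at least 1 bp were joined in chains, and each chain was 1 position. Where peaks were matched singly, the direct overlap of 2 intervals was used. Ends were annotated ends and RefSeq starts within 1 kb, a rule set after the files were examined. Protein sequences and the strands of Tead1 and Tead4 were not used here. HDAC3-YF and FLAG were compared over the 3 days with an exact sign-flip test, added after the data were seen. The members, gene lists and rules were chosen with earlier results of these data known. All members are named. Of each list the rule takes the 4 genes with the largest ESC to MEF difference and the 4 with the largest summed HDAC3-YF minus FLAG difference. It also takes the 5 genes most like the members' sum. Alternatives were flanks of 5 kb, the top 50% or the 14251 highest-scoring peaks of each H3K27ac list, merging within 1 kb, nearest-gene peaks and peaks of both co-repressors.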

Additional observations from a re-analysis of the deposited data

Results flagged for a closer look

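Over the 8 loci the HDAC3-YF minus FLAG difference had opposite signs between days. Values were 3 on day 5, -3 on day 9 and -6 on day 13 (peaks). The HDAC3-YF share of the complete lists was 52.0%, 48.1% and 48.1% on these days. With lists of equal length HDAC3-YF was lower on every day, with 18 and 21, 22 and 23, and 18 and 22 peaks (HDAC3-YF and FLAG). With the complete lists the sign differed between days at 4 members, where 13.4% of all genes showed this. Yap1 was at 1 at day 9 and -3 at day 13. Wwtr1 was at 2 at day 5 and -1 at both day 9 and day 13. With lists of equal length it was at 0, -1 and -1, so its sign change ended. Tead4 was at 3 at day 5 and -1 at day 13, and Lats2 at 1 at day 9 and -1 at day 13. These differences between days were not tested, since each value rests on 1 library per group.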

How the results depend on the processing

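Of the summed shares, the day 5 share in HDAC3-YF became 46.2% with lists of 14251 peaks, and the day 13 share became 55.6% with the top 50% of each list, both with the sign turned. All other alternatives of the summed shares kept their sign and lay within the interval given above. Peaks also called for the other co-repressor numbered 1 for NCoR and 1 for SMRT in ESCs and 5 for NCoR at day 9, which follows from the smaller set. MEF peaks with an ESC counterpart numbered 17 with centres within 1 kb. With the top 50% of each list the sign turned at Tead1 between ESCs and MEFs (1), at Lats2 at day 9 (-1) and at Tead3 at day 13 (2). Of 32 differences at single genes 25 were the same with flanks of 5 kb, 31 with merging, 27 with nearest-gene peaks, 19 with equal lists and 10 with the top 50%. For the changes with the top 50%, fewer peaks enter by construction, and otherwise the cause was not tested. Unknown read depth limits every count, and a missing peak is not evidence that the mark is absent. Pairing by day was added after the data were seen. A limma 3.58.1 fit of log2(peaks + 1) with day as the replicate block recovered 0 of 100 genes simulated with a 4-fold change and is not used. In the real lists it called 81 of 12464 genes (79 without the block). Simulated counts were drawn independently for each list, so they may vary more than the real ones. No member was among the called genes, which is not read as a result because the fit is not used.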
